A study of Mus musculus with 6 samples.

Results

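The inhibitor of differentiation (ID) genes Id1, Id2 and Id3 and the E-protein genes Tcf3, Tcf4 and Tcf12 were followed in leukaemic granulocyte-macrophage progenitors (L-GMP), which are cancer cells with features of the normal precursor of granulocytes and monocytes. The 6 genes were taken by symbol from the 47643 genes of the table. All 6 have a row, and 5 of them passed the minimum mean of 1 FPKM over the libraries and were tested, among 9108 tested genes in all. FPKM is here the number of fragments scaled by gene length and by a factor for each library, so levels can be compared between genes. The RNA came from C57BL/6 mice and was sequenced in 3 wild-type (WT) and 3 knockout (KO) libraries, the KO being labelled as lacking both Prkaa1 and Prkaa2, which encode the catalytic subunits of the energy sensor AMP-activated protein kinase. The labels name neither an oncogene, nor how or in which cells the knockout was made, nor the age or number of the mice, nor a batch. Whether the replicates are separate animals is not stated. The p-values therefore reflect how far the 3 libraries of a group differ, and that spread may be technical.

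ID proteins and E proteins belong to the helix-loop-helix (HLH) family. E proteins pair with each other, or with tissue-restricted class II factors, through the HLH, and grip the E-box motif CANNTG of DNA with an adjoining basic region. ID proteins keep the HLH but lack the basic region, so a pair of an ID and an E protein cannot bind DNA. In blood, E proteins drive lymphoid genes, Tcf4 is required for plasmacytoid dendritic cells, and Id1 is a classical target of bone morphogenetic protein (BMP) signalling through SMAD proteins. Tcf3 encodes E12 and E47, which differ in an alternatively spliced exon that codes the basic region and HLH, Tcf4 encodes E2-2 and Tcf12 encodes HEB.

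The stretches that code the HLH show what joins the ID genes and what separates them from their partners. They were read from the mouse GRCm38 genome at the GENCODE M21 coding exons, 5′ to 3′ on the gene's strand. In the ID genes, capitals mark the bases that are not the same in all 3.
Id1 (chr2:152736524-152736646, plus strand): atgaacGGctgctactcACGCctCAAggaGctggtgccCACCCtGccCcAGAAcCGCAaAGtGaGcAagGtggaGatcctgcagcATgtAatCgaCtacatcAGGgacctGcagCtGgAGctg
Id2 (chr12:25095774-25095896, minus strand): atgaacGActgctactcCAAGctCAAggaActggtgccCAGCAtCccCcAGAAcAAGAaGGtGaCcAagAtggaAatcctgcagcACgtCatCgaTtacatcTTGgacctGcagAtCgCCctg
Id3 (chr4:136144008-136144130, plus strand): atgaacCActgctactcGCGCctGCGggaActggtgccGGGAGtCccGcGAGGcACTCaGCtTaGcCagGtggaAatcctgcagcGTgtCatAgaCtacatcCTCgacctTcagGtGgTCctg

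Over these 123 bases, 78 were the same in all 3 genes. Id1 and Id2 matched at 98 bases (79.7%), Id2 and Id3 at 88 (71.5%), and Id1 and Id3 at 86 (69.9%). The E-protein genes carry a further stretch before the HLH, shown in capitals below, which codes the basic region that the ID genes lack. The Tcf3 forms come from the alternative exons, of which the first codes the E12 type and the second the E47 type.
Tcf3, transcript Tcf3-206 (chr10:80412831-80413010, minus strand): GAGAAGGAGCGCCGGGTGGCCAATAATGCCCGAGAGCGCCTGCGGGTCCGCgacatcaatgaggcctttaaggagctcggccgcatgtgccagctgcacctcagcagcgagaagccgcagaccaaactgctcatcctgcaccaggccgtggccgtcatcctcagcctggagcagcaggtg
Tcf3, transcript Tcf3-208 (chr10:80410402-80410581, minus strand): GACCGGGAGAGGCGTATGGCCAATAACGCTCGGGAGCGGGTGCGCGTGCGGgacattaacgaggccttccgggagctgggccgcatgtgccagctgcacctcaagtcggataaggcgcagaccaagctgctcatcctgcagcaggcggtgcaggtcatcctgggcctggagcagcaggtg
Tcf12, transcript Tcf12-218 (chr9:71856309-71856488, minus strand): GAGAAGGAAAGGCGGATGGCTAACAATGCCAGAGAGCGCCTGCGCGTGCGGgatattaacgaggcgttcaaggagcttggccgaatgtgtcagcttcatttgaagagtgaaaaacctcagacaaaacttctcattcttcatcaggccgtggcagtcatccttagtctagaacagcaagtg

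The forms of Tcf3 matched at 144 of 180 bases (80.0%), and the E12-type form matched Tcf12 at 141 bases (78.3%). The E12-type stretch was found in 4 of the 12 annotated coding transcripts of Tcf3 and the E47-type stretch in 7. The deposited table gives 1 value per gene, so E12 and E47 were not measured apart.

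All 3 ID genes rose in KO and both tested E-protein genes fell, with no overlap between the 3 WT and the 3 KO libraries for any of the 6 members. Id3 passed the minimum mean only through KO and Tcf4 only through WT, so the filter fixed their directions among the tested genes. Over all tested genes, 38.0% were called higher and 40.4% lower at a limma adjusted p under 0.05, 78.4% in either direction, so being called is common in this comparison. Groups that do not overlap were as common, at 80.6% of tested genes. Log2 changes are differences of log2(FPKM + 1) between KO and WT, which makes changes of weak genes look smaller than they are, and folds are ratios of mean FPKM.

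**Figure D1:**
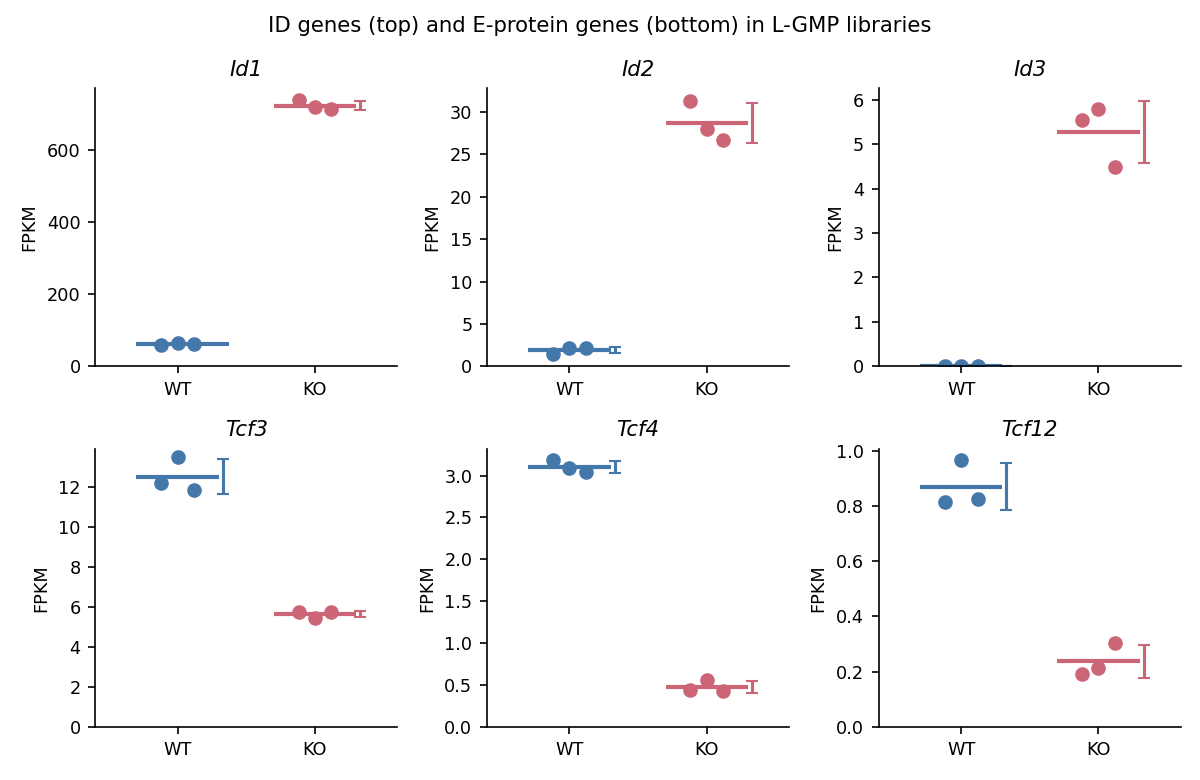
FPKM of each ID gene (upper row) and each E-protein gene (lower row) in the 3 WT and 3 KO libraries. Each point is 1 library, each horizontal line a group mean and each side bar the mean ± SD (n = 3), on linear axes that start at 0. Every KO point of the ID genes lies above every WT point, and every KO point of the E-protein genes lies below every WT point.

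Id1 (ENSMUSG00000042745, chr2:152736251-152737410, plus strand) had the highest level of the 6 genes in both groups. It measured 59.8, 65.0 and 62.9 FPKM in WT replicates 1 to 3, against 736, 717 and 712 FPKM in KO replicates 1 to 3. The KO libraries were thus far above the WT libraries and close to each other. The mean went from 62.6 ± 2.61 to 722 ± 12.5 FPKM (SD, n = 3 libraries per group), an 11.5-fold difference that rests on 3276 and 31086 reads. The log2 change was 3.51 (SE 0.03, 95% CI 3.43 to 3.59, limma adjusted p = 8.37e-10), the 48th largest rise among the tested genes. Ordered by level among the genes above 0 in each group, Id1 moved from position 1296 of 18522 in WT to position 111 of 17068 in KO.

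Id2 (ENSMUSG00000020644, chr12:25093799-25097140, minus strand), best known for its role in innate lymphoid and dendritic cells, started from a low level. It measured 1.49, 2.18 and 2.12 FPKM in WT replicates 1 to 3, against 31.3, 28.0 and 26.7 FPKM in the KO replicates. The lowest KO library was far above the highest WT library. The mean rose 14.9-fold, from 1.93 ± 0.383 to 28.6 ± 2.38 FPKM, with a log2 change of 3.34 (SE 0.11, 95% CI 3.08 to 3.61, limma adjusted p = 1.59e-07), the 58th largest rise. The WT libraries had 24, 50 and 38 reads and the KO libraries 508, 405 and 438. These numbers hold at a length of 1270 bases, which is that of 1 annotated transcript and shorter than the 2438 exonic bases of all Id2 transcripts together.

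Id3 (ENSMUSG00000007872, chr4:136143497-136145755, plus strand), an ID gene with known roles in lymphocytes, had no read in any WT library. In the KO replicates it measured 5.54, 5.78 and 4.49 FPKM, from 127, 118 and 104 reads. It therefore went from undetected to a moderate level, and it passed the minimum mean only through the KO libraries. Against a floor of 3 reads over the WT group, the KO level of 5.27 ± 0.687 FPKM was at least 141-fold higher, a bound that covers counting error only. The log2 change was 2.64 (SE 0.10, 95% CI 2.41 to 2.88, limma adjusted p = 2.98e-07), the 135th largest rise. The remaining family gene, Id4 (ENSMUSG00000021379), was listed at 0 in all 6 libraries.

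Tcf3 (ENSMUSG00000020167, chr10:80409514-80433647, minus strand) was the most abundant E-protein gene in both groups. Its level was 12.2, 13.5 and 11.8 FPKM in WT replicates 1 to 3, against 5.73, 5.45 and 5.72 FPKM in the KO replicates. The KO values lay within a narrow band under the whole WT range. The mean fell 2.22-fold, from 12.5 ± 0.879 to 5.63 ± 0.158 FPKM (2285 and 846 reads), with a log2 change of -1.02 (SE 0.06, 95% CI -1.17 to -0.87, limma adjusted p = 4.22e-06). This was the 1209th largest fall among the tested genes, so its size was not extreme.

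Tcf4 (ENSMUSG00000053477, chr18:69343356-69689079, plus strand) fell further. It measured 3.18, 3.09 and 3.04 FPKM in WT replicates 1 to 3, against 0.443, 0.554 and 0.432 FPKM in the KO replicates. All KO libraries were below 1 FPKM, and the gene passed the minimum mean through its WT libraries. The mean fell 6.52-fold, from 3.11 ± 0.0715 to 0.476 ± 0.0678 FPKM, a log2 change of -1.48 (SE 0.08, 95% CI -1.66 to -1.30, limma adjusted p = 1.50e-06) and the 662nd largest fall. Although the FPKM was low, the gene's 27382 exonic bases gathered 3816 reads in WT and 481 in KO.

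Tcf12 (ENSMUSG00000032228, chr9:71842688-72111871, minus strand) was the weakest E-protein gene and stayed under the minimum mean, so it has no value in the test over 9108 genes. It measured 0.816, 0.968 and 0.826 FPKM in WT replicates 1 to 3, against 0.191, 0.215 and 0.304 FPKM in the KO replicates. The groups did not overlap, and the KO mean of 0.237 ± 0.0593 FPKM was 3.68-fold below the WT mean of 0.870 ± 0.0849 FPKM (614 and 137 reads). When every gene above 0 in at least 1 library was tested, 21132 in all, the log2 change was -0.60 (SE 0.07, limma adjusted p = 0.000702). In that test 22.1% of genes were called higher and 27.3% lower, 49.4% in all. None of the 6 members shares an exonic base with another annotated gene.

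The order of the falls depended on the scale. As a ratio of mean FPKM, Tcf4 fell most, then Tcf12, then Tcf3, whereas on the log2(FPKM + 1) scale the fall of Tcf12 was smaller than that of Tcf3. With a pseudocount of 0.1 the log2 changes were -2.48 for Tcf4, -1.54 for Tcf12 and -1.13 for Tcf3, which is the order of the ratios. Id3 also depended strongly on the scale, with a log2 change of 5.74 at a pseudocount of 0.1.

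The deposited values do not sum to the same total in each library, and this bears on the sizes. The FPKM sums were 463683 to 475654 in WT and 649611 to 653819 in KO. The library factors behind the values matched median-ratio size factors of the reads recovered from them, with quotients of 0.9999 to 1.0001. Such a factor is the median over genes of a library's reads relative to the geometric mean of all libraries. The sums therefore need not be equal, and rescaling to equal sums replaces that scaling. With each library rescaled to the same sum, the median log2 change of all tested genes moved from -0.02 to -0.43, and the calls moved to 22.0% higher and 60.0% lower of 9167 genes. The members kept their directions and calls there, with log2 changes of 3.04 for Id1, 2.97 for Id2, 2.46 for Id3, -1.44 for Tcf3 and -1.74 for Tcf4, and -0.76 for Tcf12 with no minimum mean. Either direction together, 82.0% of genes were called there.

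**Figure D2:**
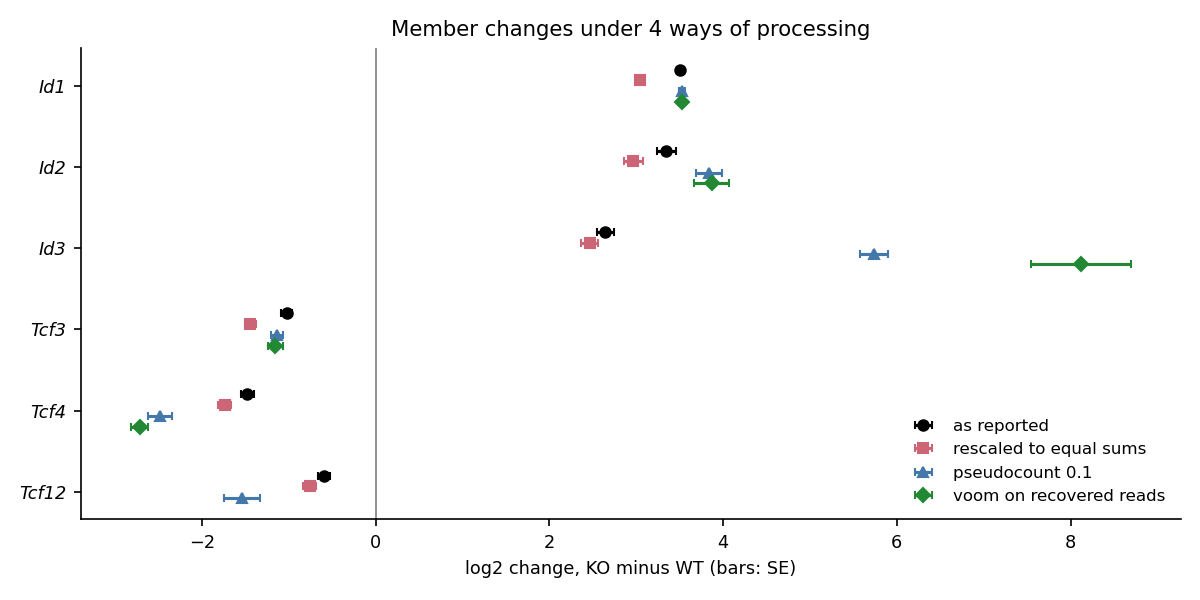
Log2 change of each member, KO minus WT, with bars of 1 SE. Black circles are the reported values (Tcf12 with no minimum mean), red squares libraries rescaled to equal FPKM sums, blue triangles a pseudocount of 0.1, and green diamonds limma-voom on recovered reads (no value for Tcf12). All symbols of the ID genes lie right of 0 and all symbols of the E-protein genes left of it, while Id3 and Tcf4 shift most along the axis.

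In WT, the order of the levels in deposited FPKM was Id1, Tcf3, Tcf4, Id2, Tcf12 and Id3, and the ranges of neighbours in that order did not overlap. In KO, the order was Id1, Id2, Tcf3, Id3, Tcf4 and Tcf12. There the levels of Tcf3 (5.45 to 5.73 FPKM) and Id3 (4.49 to 5.78 FPKM) did not differ beyond their spread. Id2 thus stood below Tcf3 and Tcf4 in WT and above both in KO.

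Summed over the family, the ID genes came to 61.3, 67.2 and 65.0 FPKM in WT replicates 1 to 3, against 773, 751 and 743 FPKM in the KO replicates. The summed E-protein genes came to 16.2, 17.6 and 15.7 FPKM in WT and 6.36, 6.22 and 6.46 FPKM in KO. The ratio of the sums was 3.79, 3.83 and 4.15 in WT and 121, 121 and 115 in KO, with means of 3.92 ± 0.196 and 119 ± 3.48. ID transcripts therefore outnumbered E-protein transcripts in every library of both groups. These are RNA levels, and the amounts of protein were not measured.

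Id1 made up most of the ID sum, 97.0% in WT and 95.5% in KO. Without Id1, the summed Id2 and Id3 level was 0.0918, 0.124 and 0.135 times the summed E-protein level in the WT replicates and 5.79, 5.43 and 4.82 times it in the KO replicates. On these genes alone the order of the family sums was opposite in the groups, with E-protein transcripts ahead in WT and ID transcripts ahead in KO. Within the E-protein sum, Tcf3 rose from a share of 75.8% in WT to 88.8% in KO, and Tcf4 went from 18.9% to 7.52%.

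**Figure D3:**
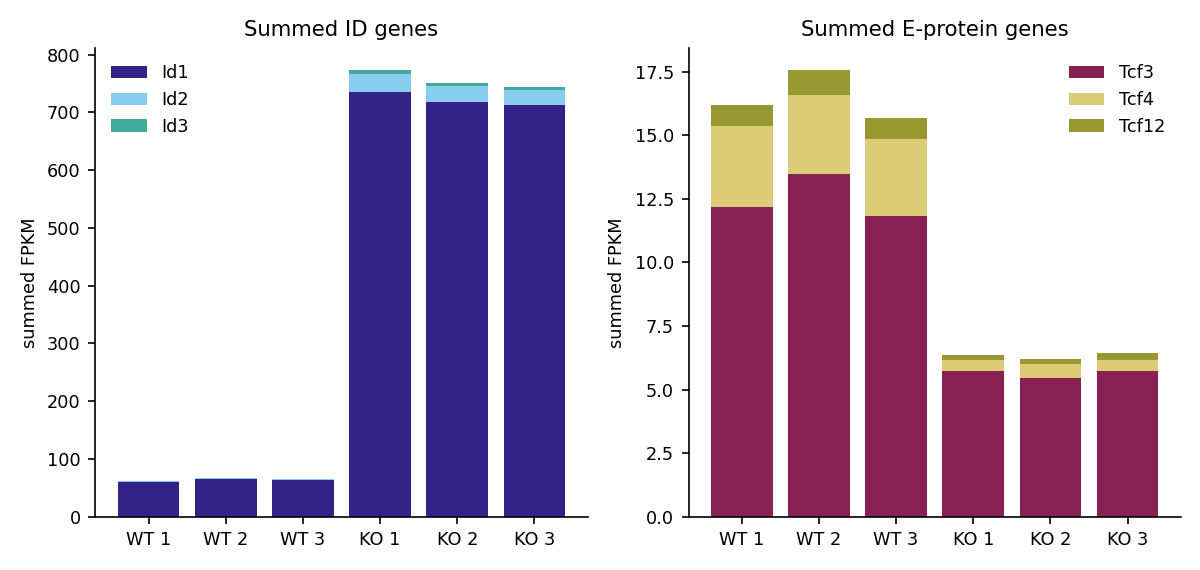
Summed FPKM of the ID genes (left) and of the E-protein genes (right) in each of the 6 libraries, stacked by gene, on separate linear axes that start at 0. Id1 fills most of every ID bar, and Tcf3 fills most of every E-protein bar. The ID bars reach at most 67.2 FPKM in WT and at least 743 FPKM in KO, and the E-protein bars at least 15.7 FPKM in WT and at most 6.46 FPKM in KO.

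Levels of Tcf4 and Tcf12 depend on the gene length behind FPKM, because all annotated exons of these genes add up to far more than the longest coding transcript. Taken per length of the longest coding transcript, 8577 bases for Tcf4, the WT level of Tcf4 was 9.92 ± 0.228 FPKM and the KO level 1.52 ± 0.216 FPKM. For Tcf12, at 6299 bases, they were 2.14 ± 0.209 and 0.583 ± 0.146 FPKM, and for Tcf3, at 2950 bases, 17.1 ± 1.20 and 7.71 ± 0.217 FPKM. The KO to WT ratio of each gene is the same on either length, but Tcf4 then stood nearer to Tcf3 in WT. Tcf12, at 2.01 to 2.39 FPKM in WT, then overlapped Id2, at 1.49 to 2.18 FPKM, so the order of these genes in WT depends on the length. The share of Tcf4 in the E-protein sum was 32.1 to 35.2% in WT and 13.8 to 18.1% in KO, and that of Tcf3 57.8 to 60.1% in WT and 76.5 to 80.6% in KO. The ratio of ID to E-protein sums was 2.12, 2.19 and 2.33 in WT and 79.6, 77.2 and 74.8 in KO on this length, with Id2 kept at the 1270 bases behind its deposited value and not the 1969 bases of its longest coding transcript. This length was chosen after the data were seen.

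**Figure D4:**
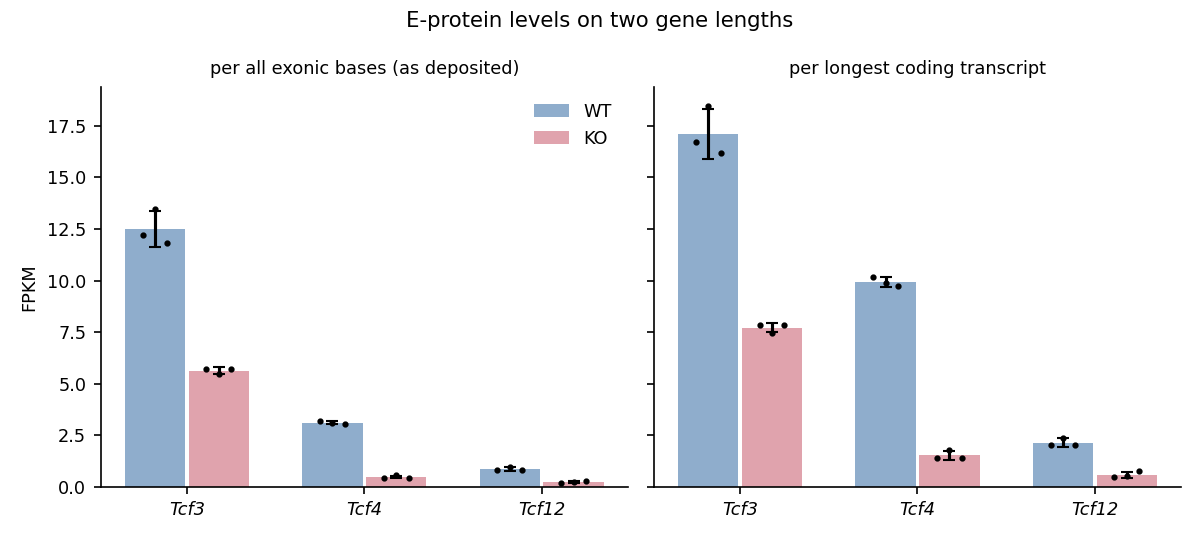
FPKM of Tcf3, Tcf4 and Tcf12 per all exonic bases (left) and per length of the longest coding transcript (right). Bars are group means that start at 0, points the 3 libraries of each group and error bars the SD. The KO bar is lower than the WT bar for each gene in both panels, and the Tcf4 bar of WT goes from 3.11 to 9.92 FPKM.

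The targeted genes serve as a check on the labels. Prkaa1 measured 2.01, 2.20 and 1.80 FPKM in WT and 1.11, 0.735 and 0.548 FPKM in KO (log2 change -0.75, SE 0.13, limma adjusted p = 0.00112), lower in each KO library but not absent. Prkaa2 was almost unread in both groups, at 2 and 4 reads, so its loss was not detectable at this depth. The recovered reads per library were 11390343 to 16415932, and each WT library had 15956 to 16466 genes above 0, each KO library 14560 to 14691.

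Marker genes of other cell types moved with the groups as well, and their part in the changes of the ID and E-protein genes was not tested. In bulk samples, fewer cells of a type and less RNA per cell cannot be told apart. Granulocyte-macrophage progenitor genes summed to 7917 to 8218 FPKM in WT and 16774 to 17073 FPKM in KO, led by the granule proteases Ctsg, Elane and Prtn3, and 10 of the 13 genes reached 1 FPKM in WT, 12 in KO. Of the 11 tested, 6 rose and 5 fell, or 4 and 6 with rescaled libraries, where the log2 change of Ctsg turned from 0.23 to -0.24. The Fc receptor genes Fcgr3 and Fcgr2b fell from 129 ± 2.34 to 66.8 ± 4.48 FPKM and from 14.9 ± 0.397 to 4.19 ± 0.513 FPKM. The receptor Kit was low, at 0.250 ± 0.0654 FPKM in WT and 1.43 ± 0.0243 FPKM in KO, and the progenitor surface gene Cd34 fell from 27.8 ± 0.840 to 3.51 ± 0.157 FPKM (limma adjusted p = 1.69e-08). Neutrophil genes summed to 388 to 400 FPKM in WT and 71654 to 73027 FPKM in KO, most of it from S100a8 and S100a9. All 8 tested of the 12 rose, Camp only 1.54-fold, while Mmp9, untested, went from 9 reads to none. Genes of eosinophils, basophils and mast cells went from 32.9 to 39.1 FPKM up to 577 to 606 FPKM, where 8 of 8 tested rose while Ear1, Il5ra, Cma1 and Tpsb2 were at 0 in all libraries. Erythroid genes went from 33.9 to 37.3 FPKM up to 238 to 245 FPKM, with 8 of 8 tested higher. With rescaled libraries Hba-a2 lost its call there (log2 change 0.08, limma adjusted p = 0.658), as did Camp among the neutrophil genes (log2 change 0.13, limma adjusted p = 0.286). Among the tested genes of these lists, Csf3r, Ltf, Prg2, Epx, Prss34, Fcer1a, Gata1, Klf1 and Car2 averaged under 1 FPKM in WT. They passed the minimum mean only through KO, so their direction follows from the filter and adds nothing to these counts.

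Lymphoid and dendritic marker lists, in whose cells Id2 and the E proteins are best known, were mostly low. B-cell genes summed to 87.2 to 93.7 FPKM in WT and 56.0 to 58.2 FPKM in KO, with Pax5 at 0 in all libraries. Of the 2 tested, 1 rose and 1 fell, also with rescaled libraries. The gene that fell was Cd79b, from 54.6 ± 2.73 to 2.48 ± 0.557 FPKM, so the lower sum does not stand for the whole list. T-cell genes summed to 2.89 to 3.16 FPKM in WT and 0.757 to 1.23 FPKM in KO, and 6 of 12 were at 0 in all libraries. Natural killer and innate lymphoid genes summed to at most 0.789 FPKM in every library, with 7 of 10 at 0 in all. Plasmacytoid dendritic cell genes summed to 105 to 109 FPKM in WT and 38.0 to 45.1 FPKM in KO, most of it from Cox6a2 and Bst2, with Klk1, Ly6d, Pacsin1 and Cd209d at 0 and Siglech at 0 in WT and 2 reads in KO. Conventional dendritic cell genes summed to 26.5 to 29.0 FPKM in WT and 43.1 to 46.5 FPKM in KO, most of it from H2-Ab1, which rose, while H2-Eb1 fell from 2.67 ± 0.341 FPKM to no read and Xcr1 went from 43 reads to none. Monocyte genes summed to 479 to 493 FPKM in WT and 169 to 179 FPKM in KO, most of it from Ly6c2 and Cd68. However, of the 5 tested 2 rose (Adgre1 3.09-fold and Fcgr1 8.18-fold) and 3 fell. Fcgr1 averaged under 1 FPKM in WT and F13a1, which fell, under 1 FPKM in KO, so the minimum mean fixed their directions. The megakaryocyte list reached at most 14.1 FPKM, with 5 of 10 genes at 0 in all libraries. Endothelial and stromal lists reached at most 2.78 and 1.02 FPKM, and surface genes that normal GMP lack, Cd3e and Cd8a at 0 among them, at most 2.10 FPKM.

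Around the members, 14 lists of pathway genes were counted in the same fit. Of the 195 genes in the table outside the members, 64 were tested, of which 37 rose, 23 fell and 4 did not pass, with a median log2 change of 0.36 against -0.02 over all tested genes. With libraries rescaled to equal sums, 27 were higher and 31 lower, with a median of -0.08 against -0.43. The counts as deposited are set against the background of 38.0% higher and 40.4% lower given above. The rescaled counts belong to the background of 22.0% higher and 60.0% lower found with rescaled libraries. The tested genes also differed there, as Bmp8a and Bhlha15 passed the minimum mean while Socs3 and Cdkn1c did not. Of the 37 genes called higher, 14 averaged under 1 FPKM in WT, and of the 23 called lower, 5 averaged under 1 FPKM in KO. The 14 were Tal1, Gata1, Ep300, Eng, Tgfbr1, Egr1, Gfi1b, Tcf7l2, Klf4, Notch1, Socs3, Bcl6, Ptprs and Cdkn1c. The 5 were Cbfa2t2, Stat5a, Vpreb3, Cox6a2 and Runx2. Such genes passed the minimum mean through the higher group alone and had to differ, and nothing is read from them about the lists as such.

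**Figure D5:**
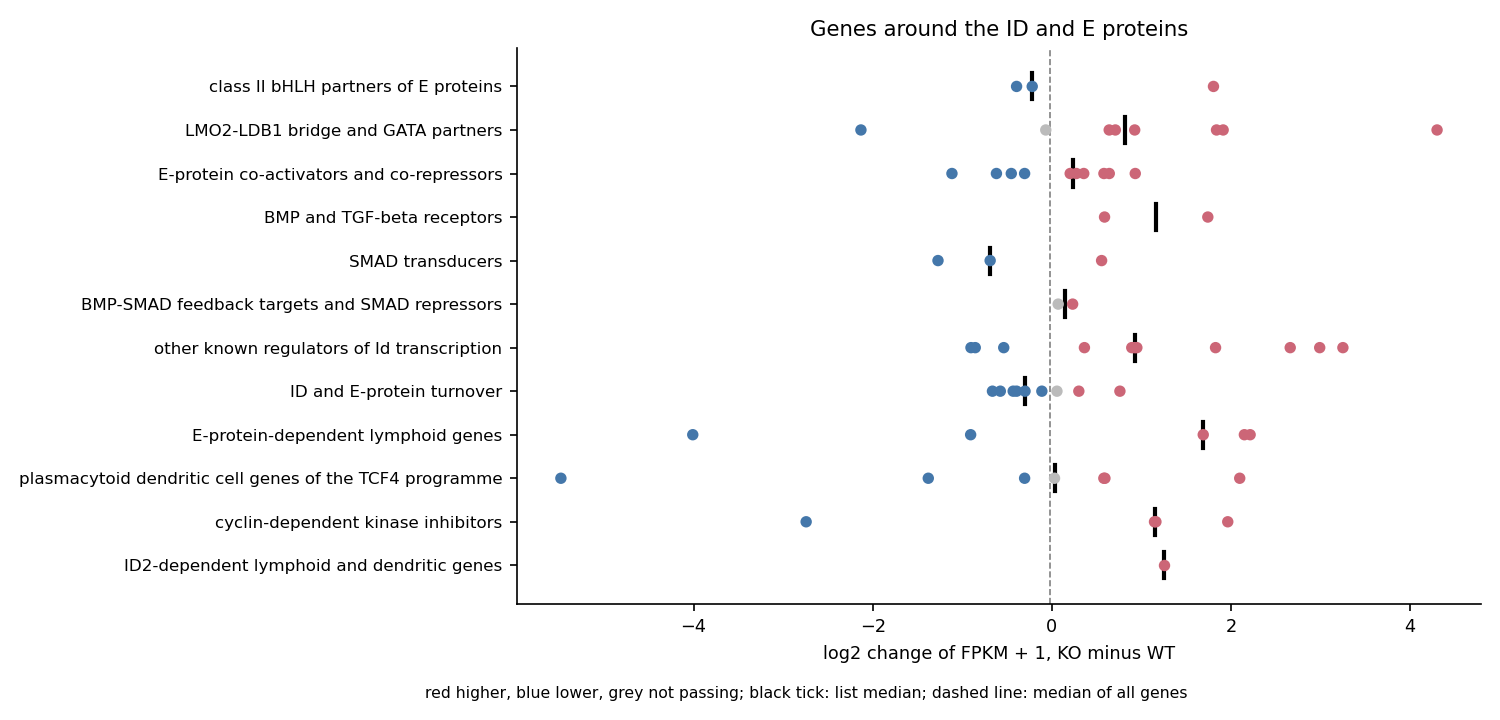
Log2 change of FPKM + 1, KO minus WT, for each tested gene of 12 lists around the ID and E proteins. Each point is 1 gene, red where it was higher, blue where lower and grey where it did not pass. The black tick is the list's median and the dashed line the median of all tested genes, -0.02. Most lists hold points on both sides of the line, with Gata1 farthest right and Cox6a2 farthest left.

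Among the class II HLH partners that E proteins bind, 3 of 26 were tested, of which 1 rose and 2 fell. Tal1, a partner of E proteins in stem and erythroid cells, was unread in all WT libraries. The KO replicates had 2.28, 2.84 and 2.38 FPKM, at least 163-fold above the WT floor of 3 reads (log2 change 1.81, limma adjusted p = 1.27e-06). Its close relative Lyl1 was the most abundant partner and fell slightly, from 53.9 ± 2.07 to 46.2 ± 1.41 FPKM (log2 change -0.22, limma adjusted p = 0.00169). Ascl2 fell from 2.28 ± 0.216 to 1.496 ± 0.0886 FPKM. Bhlha15, a factor of secretory cells, was under the minimum mean as deposited. It had 1.74 ± 0.369 FPKM (275 reads) in WT, was at least 75.8-fold lower in KO, where it was unread, and was called lower with rescaled libraries (log2 change -1.61, limma adjusted p = 5.80e-06). Of the 23 untested genes, 19 were at 0 in all libraries.

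The LMO2 and LDB1 bridge joins such pairs to GATA factors, and 8 of its 12 genes were tested, of which 6 rose, 1 fell and Ssbp4 did not pass, though it was called lower with rescaled libraries (log2 change -0.53, limma adjusted p = 9.545e-06). Lmo2, the bridging adaptor, measured 101, 105 and 98.1 FPKM in WT and 22.6, 20.7 and 24.0 FPKM in KO, a log2 change of -2.13 (SE 0.06, limma adjusted p = 6.05e-08). Its paralog Lmo1 rose from 7.93 ± 0.285 to 31.0 ± 2.86 FPKM. Gata1, the erythroid, megakaryocytic and eosinophil factor, was unread in WT. Its KO replicates had 19.3, 18.3 and 18.6 FPKM, at least 685-fold higher (log2 change 4.30, limma adjusted p = 4.64e-09). Gata2 rose 4.74-fold, from 2.85 ± 0.0672 to 13.5 ± 0.471 FPKM. Gata1 also stands in the erythroid marker list and Gata2 in the mast cell list described above. The scaffold Ldb1 itself was under the minimum mean, at 0.789 ± 0.201 FPKM in WT and 0.464 ± 0.130 FPKM in KO.

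Of the co-activators and co-repressors of E proteins, 10 of 14 were tested, 6 higher and 4 lower. The acetyltransferase gene Kat2a fell from 9.78 ± 0.983 to 3.97 ± 0.307 FPKM (log2 change -1.12, limma adjusted p = 1.53e-05), while the deacetylase gene Hdac3 rose from 13.6 ± 0.898 to 26.8 ± 0.762 FPKM (log2 change 0.93, limma adjusted p = 3.42e-06). Ep300, the acetyltransferase p300, rose from 0.862 ± 0.106 to 1.90 ± 0.0303 FPKM, and the corepressor gene Cbfa2t2 fell from 1.84 ± 0.210 to 0.849 ± 0.126 FPKM. With libraries rescaled, 3 were higher and 6 lower, and the log2 changes of Hdac1, Ncor1 and Sin3b went from 0.21, 0.36 and 0.27 to -0.25, -0.01 and -0.19. The direction of this list therefore depended on the scaling.

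The BMP and SMAD route to the Id genes was sparse at its top. None of the 16 ligand genes reached the minimum mean. Inhba, the activin A subunit, had 0.265 ± 0.200 FPKM in WT and 1.51 ± 0.396 FPKM in KO, untested. Bmp8a, a BMP ligand, went the other way, from 1.68 ± 0.196 FPKM (184 reads) to no read, at least 50.7-fold lower, and was called lower with rescaled libraries, where it passed the minimum (log2 change -1.58, limma adjusted p = 1.61e-06). Of 15 receptor genes in the table, 2 were tested and both rose, having passed the minimum mean only through KO, so their direction follows from the filter. Eng, the co-receptor endoglin, was unread in WT. Its KO replicates had 2.36, 2.19 and 2.501 FPKM, at least 143-fold higher (limma adjusted p = 7.60e-07). Tgfbr1, a type I receptor for TGF-beta, rose from 0.790 ± 0.0925 to 1.70 ± 0.263 FPKM (limma adjusted p = 0.000985). Bmpr1a, a type I receptor for BMP, was at 0 in all libraries.

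SMAD transducers did not move one way. Smad5, which carries BMP signals, measured 2.95, 2.73 and 2.49 FPKM in WT and 0.969, 1.57 and 1.43 FPKM in KO, a log2 change of -0.69 (SE 0.12, limma adjusted p = 0.00112). Smad2, which carries TGF-beta and activin signals, fell from 10.6 ± 0.451 to 3.83 ± 0.683 FPKM (limma adjusted p = 1.86e-05). Smad1, the other main BMP transducer, was unread in WT and reached 0.901 ± 0.0623 FPKM in KO, under the minimum mean and untested. The shared partner Smad4 rose from 1.78 ± 0.250 to 3.08 ± 0.239 FPKM (limma adjusted p = 0.00101), a call lost with rescaled libraries, where the log2 change was 0.23 (limma adjusted p = 0.0575).

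Among 16 feedback targets and SMAD repressors, 2 were tested. Bambi, a decoy receptor that BMP induces, stood at 1.90 ± 0.0645 FPKM in WT and 2.05 ± 0.0836 FPKM in KO and did not pass (limma adjusted p = 0.381), but was called lower with rescaled libraries (log2 change -0.24, limma adjusted p = 0.0144). The repressor gene Tgif1 was called higher, from 3.98 ± 0.168 to 4.85 ± 0.321 FPKM (log2 change 0.23, limma adjusted p = 0.0182). Its direction turned with rescaled libraries, to a log2 change of -0.15 (limma adjusted p = 0.0815), and the call was lost without WT replicate 2 (adjusted p = 0.0645) or without KO replicate 1 (adjusted p = 0.0580). The inhibitory SMAD gene Smad6 was at 0 in all libraries. Other untested genes of the list moved both ways. From WT to KO, Smad7 went from 3 to 21 reads, Ski from 64 to 237, Smurf2 from 112 to 286, Smurf1 from 86 to 112 and Fst from 0 to 21. Skil went from 85 to 45 reads, Tgif2 from 5 to 0 and Chrd from 1 to 0.

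Other known regulators of Id transcription included larger changes, with 11 of 15 tested, 8 higher and 3 lower. Egr1, Gfi1b, Tcf7l2 and Klf4 passed the minimum mean only through KO and Stat5a only through WT, so their direction follows from the filter. Egr1, an immediate-early factor, measured 0.597, 0.222 and 0.617 FPKM in WT and 13.2, 13.03 and 12.7 FPKM in KO, a log2 change of 3.25 (SE 0.12, limma adjusted p = 2.43e-07). Gfi1b, a repressor in erythroid and megakaryocytic cells, rose 16.6-fold, from 0.783 ± 0.380 to 12.97 ± 1.03 FPKM. Cebpb, a myeloid factor, rose 6.98-fold, from 8.26 ± 0.534 to 57.6 ± 2.93 FPKM, although 20.7% of its exonic bases overlap another gene and its value is uncertain. Klf4, a factor of monocytic differentiation, went from no read to 2.57 ± 0.489 FPKM, at least 118-fold higher (limma adjusted p = 3.60e-06). Trp53, the p53 gene, had the highest mean level of the list over all libraries, though not in KO, and fell from 83.9 ± 1.29 to 44.4 ± 1.38 FPKM.

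Genes for the turnover of ID and E proteins had log2 changes between -0.66 and 0.76. Of 11 in the table, 9 were tested, 2 higher, 6 lower and Usp1 not passing. Usp1, the deubiquitinase that stabilises ID proteins, stood at 8.90 ± 0.0210 FPKM in WT and 9.33 ± 1.05 FPKM in KO (log2 change 0.06, limma adjusted p = 0.534). With rescaled libraries Usp1 was called lower (log2 change -0.37, limma adjusted p = 0.00347). Its cofactor gene Wdr48 fell from 9.0 ± 0.658 to 5.31 ± 0.376 FPKM, Cops5 of the COP9 signalosome fell from 67.3 ± 0.868 to 44.9 ± 1.45 FPKM, and Cdc20, an activator of the anaphase-promoting complex, fell from 280 ± 6.09 to 207 ± 7.41 FPKM. Stub1 rose from 162 ± 6.14 to 275 ± 6.54 FPKM, an uncertain value since 42.3% of its exonic bases are shared.

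Of the E-protein-dependent lymphoid genes, 5 of 28 were tested, 3 higher and 2 lower. The 3 that rose had passed the minimum mean only through KO, and Vpreb3, which fell, only through WT. Cd79b, a chain of the B-cell receptor, measured 51.5, 56.8 and 55.4 FPKM in WT and 2.73, 1.84 and 2.86 FPKM in KO, a log2 change of -4.01 (SE 0.12, limma adjusted p = 9.57e-08). Cd79b also stands in the B-cell marker list. Notch1, a receptor of T-cell commitment, rose from 0.649 ± 0.0358 to 6.68 ± 0.715 FPKM, and Bcl6, a transcriptional repressor, rose from 0.0294 ± 0.00517 to 3.58 ± 0.353 FPKM. Socs3, a brake on cytokine signalling, had 1 read in WT and 246 in KO, a read ratio of 298 with a 95% counting interval of 52.9 to 11799.6. Vpreb3, part of the B-cell precursor programme, fell from 1.67 ± 0.178 to 0.492 ± 0.601 FPKM (limma adjusted p = 0.0124).

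Several lymphoid genes under the minimum mean, and so untested, had reads in WT and none in KO. Flt3, a receptor of early progenitors, had 406 reads in WT and was at least 112-fold lower in KO. Igll1 had 47 WT reads, Rag2 33, Vpreb1 29 and Irf4 28, each with no KO read, or at least 12.95-fold, 9.09-fold, 7.99-fold and 7.72-fold lower. Other untested genes of the same list went the other way. From WT to KO, Ptcra went from 0 to 31 reads, Cd79a from 0 to 11, Foxo1 from 45 to 229 and Bcl11a from 16 to 449. The untested genes thus did not move one way. Pax5 and Dntt were at 0 in all libraries.

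Plasmacytoid dendritic cell genes tied to Tcf4 were split, with 7 of 22 tested, 3 higher, 3 lower and Tex2 not passing. Cox6a2 and Runx2 passed the minimum mean only through WT and Ptprs only through KO, so their direction follows from the filter. With rescaled libraries Tex2 was called lower (log2 change -0.27, limma adjusted p = 0.0142). Cox6a2, a cytochrome oxidase subunit, measured 81.6, 77.6 and 81.7 FPKM in WT and 0.460, 1.03 and 1.02 FPKM in KO, a log2 change of -5.48 (SE 0.13, limma adjusted p = 3.43e-08), with 10.3% of its exonic bases shared. Runx2, a factor of these cells, fell from 3.24 ± 0.151 to 0.629 ± 0.0544 FPKM. Irf8, a factor of monocytic and dendritic cells, rose from 4.08 ± 0.0964 to 20.8 ± 0.308 FPKM (log2 change 2.10, limma adjusted p = 3.00e-08). Bst2 was called higher, from 27.3 ± 3.50 to 41.6 ± 4.11 FPKM, a call lost with rescaled libraries (log2 change 0.14, limma adjusted p = 0.250).

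Some cyclin-dependent kinase inhibitor genes are known to be activated by E proteins and restrained by ID proteins, and 4 of 7 were tested, 3 higher and 1 lower. Cdkn1a, the p21 gene and one of these, rose from 187 ± 7.32 to 414 ± 6.39 FPKM (log2 change 1.15, limma adjusted p = 6.79e-08). Cdkn2d rose from 64.0 ± 2.05 to 253 ± 5.87 FPKM, and Cdkn2c fell from 56.4 ± 3.34 to 7.57 ± 0.512 FPKM. Cdkn1c rose from 0.267 ± 0.113 to 1.86 ± 0.523 FPKM, with 30.7% of its exonic bases shared. Of 12 genes of the lymphoid and dendritic cells that need Id2, only Nfil3 was tested. It rose from 9.56 ± 0.790 to 24.1 ± 0.350 FPKM (limma adjusted p = 1.11e-06). The untested genes did not move one way, with Batf3 going from 0 to 66 reads and Xcr1 from 43 to 0. Whether any of these genes lies downstream of Id2 was not tested.

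The genes with the profile most like each member were found by the Euclidean distance between centred log2(FPKM + 1) values over the 6 libraries, a measure that mostly follows the group difference. For Id1 they were Acpp (distance 0.0799) and Ypel3 (0.122), and for Id2 Ypel3 (0.284) and Mocos (0.290). For Id3 they were Il15 (0.141) and Nov (0.163). For Tcf3 they were 9430038I01Rik (0.0668) and Rps13-ps2 (0.0766), for Tcf4 Psat1 (0.0599) and Sh3tc1 (0.0673), and for Tcf12 Dnaja2 (0.0490) and Sgk3 (0.0513). Between members, Id1 and Id2 were nearest at 0.310, and Id3 lay farther from Id1, at 1.08. No member was among the nearest genes of another.

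Because Id2 and Id3 both rose from low levels, the 250 bases before their starts were compared, as given by RefSeq for GRCm38.p6, which held entries for 4 of the 6 members. The motifs searched on both strands were the E-box CANNTG, the GC-rich SMAD element GGCGCC and the CCAAT box CCAAT, and capitals mark the matches.
Id2 (chr12:25096093-25096342, minus strand): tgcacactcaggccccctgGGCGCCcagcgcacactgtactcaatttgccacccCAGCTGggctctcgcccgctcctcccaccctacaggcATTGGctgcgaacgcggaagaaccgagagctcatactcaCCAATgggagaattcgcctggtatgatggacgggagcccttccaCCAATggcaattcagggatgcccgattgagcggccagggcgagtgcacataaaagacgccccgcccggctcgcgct
Id3 (chr4:136143572-136143821, plus strand): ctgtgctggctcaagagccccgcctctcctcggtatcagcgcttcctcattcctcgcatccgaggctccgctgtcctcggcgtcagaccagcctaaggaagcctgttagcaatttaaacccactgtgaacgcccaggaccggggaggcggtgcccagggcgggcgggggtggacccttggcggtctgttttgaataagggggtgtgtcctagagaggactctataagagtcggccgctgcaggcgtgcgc

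The Id2 window held 1 E-box, 1 GC-rich SMAD element and 3 CCAAT boxes, while the Id3 window held none of these letters. Over all 32851 promoters of this length, 66.2% held an E-box, 9.59% the SMAD element and 33.8% a CCAAT box. The window before Tcf3 held 1 E-box, and of the 3 windows of Tcf12, 2 held 1 E-box each. The windows of Id2 and Id3 precede a RefSeq start but lie within the GENCODE M21 span of their gene given above. They are therefore not upstream of every annotated start. These matches describe the sequence and no binding was measured.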

How the data were processed

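Bulk RNA-seq was done on 6 L-GMP libraries, 3 WT and 3 KO. Per the labels' protocols, sorted cells went into Trizol, cDNA came from Smart-seq2, and Nextera XT libraries were run on a NextSeq instrument. Per the submitters' processing notes, the tools were CASAVA, bcl2fastq, STAR 2.5.3a and DESeq2 1.18.1, and the build was mm10. For the read counter, its annotation and its strand setting the entry is: not given in the sources used here. The authors deposited FPKM values in 1 table.

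Whole reads were recovered by dividing each FPKM value by the value of 1 read for the gene's length. Of 21132 genes above 0, 16481 came out whole, within 0.001, at the GENCODE M21 exonic length and 4650 at a length searched for. The reads served for depth, floors and 1 alternative (voom). Intervals and floors cover counting error alone, as reads copied by PCR and lacking molecular identifiers need not be separate molecules.

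The test was limma 3.58.1 (R 4.3.3) on log2(FPKM + 1), a linear model of genotype with a mean-variance trend, two-sided. It covered genes averaging 1 FPKM or more, with Benjamini-Hochberg adjustment at 0.05. The fit was also run on simulated data in which few genes changed. Since most genes were called here, that run does not vouch for these calls. With 3 libraries against 3, an exact permutation test cannot go below 0.1. Alternatives were other scalings, pseudocounts of 0.1 and 0.5, a minimum mean of 5 FPKM or none, limma without the trend, voom, the replicate block and each library left out. Named genes were all members and Id4, Prkaa1 and Prkaa2, up to 4 called genes of each pathway list with groups that do not overlap, by size of change, the highest gene where it did not pass, up to 3 marker genes by level, and the 2 nearest profiles of each member. Kit, Cd34, Siglech, Ldb1, Ssbp4, Inhba, Bmp8a, Bhlha15, Bmpr1a, Smad1, Smad6, Smad7, Ski, Smurf1, Smurf2, Fst, Skil, Tgif2, Chrd, Usp1, Trp53, Tex2, Vpreb3, Flt3, Igll1, Rag2, Vpreb1, Irf4, Ptcra, Cd79a, Foxo1, Bcl11a, Pax5, Dntt, Batf3 and Xcr1, marker genes outside the rule, and genes named as lost calls, changed signs, at 0 or passing the minimum mean through the higher group alone, were chosen after their values were seen. The members and lists were chosen with earlier results of these data known. Python 3.11.15 made the tables and figures.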

Additional observations from a re-analysis of the deposited data

How the results depend on the processing

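The 5 tested members kept their direction and their call in every alternative in which they were tested. For Id3 and Tcf4, which passed the minimum mean only through their higher group, the direction follows from the filter wherever a minimum applied. With no minimum they were also called, at log2 changes of 2.64 and -1.48. Over the settings, the log2 change ranged from 3.04 to 3.53 for Id1, 2.97 to 3.87 for Id2, 2.46 to 8.12 for Id3 (the highest from voom, where it depends on the prior count), -1.44 to -0.97 for Tcf3 and -2.72 to -1.44 for Tcf4. With a minimum mean of 5 FPKM, Id3 and Tcf4 were not tested and 1 member was called lower. That minimum left 2072 genes of the whole table called higher and 2383 lower, and 17 pathway genes higher and 15 lower, because fewer genes were tested. With no minimum, 5769 genes were called lower, and 58 pathway genes were higher and 37 lower, because more were tested. After rescaling to equal sums, genes called higher fell from 3464 to 2017 and those called lower went from 3676 to 5500, and Tgif1 turned to a log2 change of -0.15. There the WT and KO sums of the ID genes were 76.9 and 650 FPKM, and those of the E-protein genes 19.7 and 5.46 FPKM. Per length of the longest coding transcript, the E-protein sums of WT and KO were 29.2 and 9.82 FPKM, and the ratios of ID to E-protein sums 2.21 and 77.2.

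With 1 library left out at a time, 3285 to 3414 genes of the whole table were called higher and 3414 to 3699 lower, and 33 to 39 pathway genes higher and 22 to 25 lower, with 3 members higher and 2 lower each time. Replicate numbers did not pair the libraries: deviations from the group means of same-numbered libraries correlated at 0.00946, -0.0118 and -0.0166. With the replicate block, 3420 genes were called higher and 3620 lower, and 3 members were higher and 2 lower.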

Other observations

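The nearest tested protein-coding genes on either side of each member, chosen after the data were seen and by position alone, were mostly higher in KO. Of these 12 neighbours, 9 were called higher, 2 lower (Rpl11 and Polr2m) and 4930503L19Rik did not pass. Over all tested genes, 38.0% were higher and 40.4% lower. With libraries rescaled to equal sums 5 were higher, 3 lower and 4 did not pass, against 22.0% higher and 60.0% lower over all genes there. Rnf144a and Mc5r averaged under 1 FPKM in WT and passed the minimum mean only through KO, so their direction follows from the filter. The E2F factor gene E2f2, 26.6 kb from Id3, rose 6.61-fold, from 2.08 ± 0.115 to 13.8 ± 0.280 FPKM (log2 change 2.26, limma adjusted p = 5.71e-08), while the ribosomal protein gene Rpl11, 90.1 kb away on the other side, fell from 156 ± 4.45 to 104 ± 2.81 FPKM. The neighbours of Id1 changed less than Id1. H13, a signal peptide peptidase gene 27.6 kb away, measured 62.8 ± 1.10 FPKM in WT and 68.3 ± 0.754 FPKM in KO, and Cox4i2, 16.8 kb away, 2.45 ± 0.178 and 4.46 ± 1.08 FPKM. With rescaled libraries H13 turned lower (log2 change -0.34, limma adjusted p = 9.66e-06) and Cox4i2 lost its call (log2 change 0.29, limma adjusted p = 0.0847). Beside Tcf3, Uqcr11, a subunit of respiratory complex III 2.68 kb away, rose from 1615 ± 44.9 to 2270 ± 16.1 FPKM while Tcf3 fell, but with libraries rescaled to equal sums its log2 change was 0.02 (limma adjusted p = 0.217). Beside Id2, Kidins220 at 30.6 kb rose from 2.69 ± 0.0584 to 5.71 ± 0.214 FPKM, and Rnf144a, 1204 kb away, rose 4.48-fold. Around Tcf4, Mc5r, 1001 kb away, rose 7.57-fold, from 0.621 ± 0.265 to 4.70 ± 0.409 FPKM. Around Tcf12, Polr2m at 357 kb fell from 119 ± 2.10 to 55.7 ± 3.55 FPKM and Mns1 at 326 kb rose from 1.94 ± 0.260 to 5.59 ± 0.308 FPKM, with 53.0% of the exonic bases of Mns1 shared with another gene.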
